A study of Mus musculus with 6 samples.

Results

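The genes described here build and tension the actin cytoskeleton. They are 10 of 15803 genes, those with the symbol Actb, Actg1, Acta2, Tagln, Cnn2, Tpm1, Tpm2, Tpm4, Myl9 or Vcl. They were chosen by name, with earlier results of these data known, so the choice was not blind to their values. They were measured in growth plate cartilage of E18.5 mouse embryos, close to birth. The 3 libraries labelled CKO were made from embryos with the genotype Col2a1-Cre;Hnrnpk fl/fl. There the Col2a1 promoter drives Cre recombinase in chondrocytes, and Cre cuts out loxP-flanked exons of Hnrnpk, the gene of an RNA-binding protein. The 3 WT libraries were made from Hnrnpk fl/fl littermates, which carry the same floxed alleles without the Cre. The labels call the source growth plate chondrocytes and give neither the sex nor the number of embryos behind a library.

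The level of a gene is given in CPM, its reads in proportion to all reads counted in that library, per 1000000. The libraries held 1153871 to 1454094 counted reads, so 1 read was worth 0.688 to 0.867 CPM. Hnrnpk itself stood at 842, 955 and 944 CPM in WT 1, WT 2 and WT 3 and at 759, 949.9 and 780.0 CPM in CKO 1, CKO 2 and CKO 3. These ranges overlapped (log2 fold change -0.14, standard error (SE) 0.15, adjusted p = 0.622 by limma), so for these libraries the genotypes are known from the labels alone. Reads per exon were not available here. The paper reported loss of Hnrnpk protein in CKO growth plate by western blot and immunostaining, at an earlier embryonic stage. CKO 1 and CKO 3 differed little more than sampling of reads gives. The chi-square was 1.29 per gene, against 13.1 to 14.2 between either of them and CKO 2. In WT it was 2.06 between WT 1 and WT 2, and 8.65 to 9.43 between either of them and WT 3. Members whose call changes when CKO 1 and CKO 3 are averaged as 1 sample are named. For the further actin genes only the count called is then given. Nothing in the labels says that the libraries of a genotype came from separate embryos, and p-values then measure only the spread between these libraries, which may be technical.

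Actin polymerizes from monomers into filaments. Tropomyosins lie along the filaments and, with calponins and transgelins, set which motors and severing proteins can reach them, while myosin II pulls on them and vinculin links them to integrins at focal adhesions. In chondrocytes the actin network holds the round or flattened cell shape and bears on differentiation in culture. Many genes of this machinery are activated by serum response factor (SRF) with its actin-sensing cofactors MRTF, through a DNA element named the CArG box.

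Because the CArG box is the shared regulatory element of this gene class, the promoters of the members were read for it. RefSeq promoter windows (assembly GRCm38.p6, 250 bases before to 50 bases after the start) were at hand for 8 of the 10 members, all but Actb and Tagln. The CArG box was searched as CC, a fixed run of A or T only, and GG, without mismatches. This form reads the same on both strands. Such a box lay in the windows of 4 of these 8 members and in 1.81% of the 27025 genes with a window. It also lay in 2 of 7 further family genes, Acta1 and Actc1, the skeletal and cardiac muscle actins. The boxes began 90 bases before the RefSeq start of Actg1, 56 before that of Cnn2, 161 before that of Myl9 and 227 before that of Vcl. The windows of Acta2, Tpm1, Tpm2 and Tpm4 held no box of this exact form in these 300 bases. Boxes with another base in the run were not searched for. The 4 promoters are shown 5' to 3' on the strand of the gene, up to the base before the annotated transcript, with the box in capitals.
Actg1 (GRCm38.p6, chr11:120348543-120348745, minus strand): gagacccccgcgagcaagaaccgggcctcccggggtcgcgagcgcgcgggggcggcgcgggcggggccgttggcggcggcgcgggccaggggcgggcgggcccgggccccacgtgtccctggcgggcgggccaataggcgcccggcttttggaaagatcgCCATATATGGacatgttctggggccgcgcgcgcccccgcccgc
Cnn2 (GRCm38.p6, chr10:79988350-79988583, plus strand): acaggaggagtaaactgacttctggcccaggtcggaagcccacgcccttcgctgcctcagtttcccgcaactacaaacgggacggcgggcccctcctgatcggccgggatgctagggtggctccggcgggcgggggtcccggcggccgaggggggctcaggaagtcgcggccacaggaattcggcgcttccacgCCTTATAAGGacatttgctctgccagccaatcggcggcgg
Myl9 (GRCm38.p6, chr2:156775214-156775419, plus strand): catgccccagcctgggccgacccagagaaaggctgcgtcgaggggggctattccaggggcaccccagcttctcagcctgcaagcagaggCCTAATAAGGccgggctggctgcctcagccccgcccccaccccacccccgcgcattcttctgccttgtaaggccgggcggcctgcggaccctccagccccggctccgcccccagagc
Vcl (GRCm38.p6, chr14:20929148-20929397, plus strand): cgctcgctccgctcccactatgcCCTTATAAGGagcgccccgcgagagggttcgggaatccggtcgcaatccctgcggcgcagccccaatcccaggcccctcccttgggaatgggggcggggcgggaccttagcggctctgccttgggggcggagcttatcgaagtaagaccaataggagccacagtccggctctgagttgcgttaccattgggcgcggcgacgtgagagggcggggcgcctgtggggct

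Of the 10 members, 2 rose in the CKO libraries, Actb and Tpm2, and none passed the test in the other direction. Called here means an adjusted p under 0.05 from limma on log2(CPM + 1), adjusted over all 12155 genes tested, and all 10 members were tested. Of all genes tested, 3.18% were called higher in CKO and 2.60% lower. The study's own criterion asks for a log2 fold change beyond 1 in either direction and an unadjusted p below 0.05. By it 1 member was higher (Actb) and none was lower, against 5.30% and 5.10% of all genes. Every CKO library lay above every WT library for 4 members (Actb, Actg1, Tpm2 and Tpm4), against 14.5% of all genes. No member had every CKO library below every WT library, against 13.2% of all genes. The median log2 fold change was 0.44 over the members and 0.01 over all genes tested. In bulk tissue, fewer cells of a type and less RNA per cell cannot be told apart, which holds for each value that follows. The plot of levels by library shows the members side by side.

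**Figure D1:**
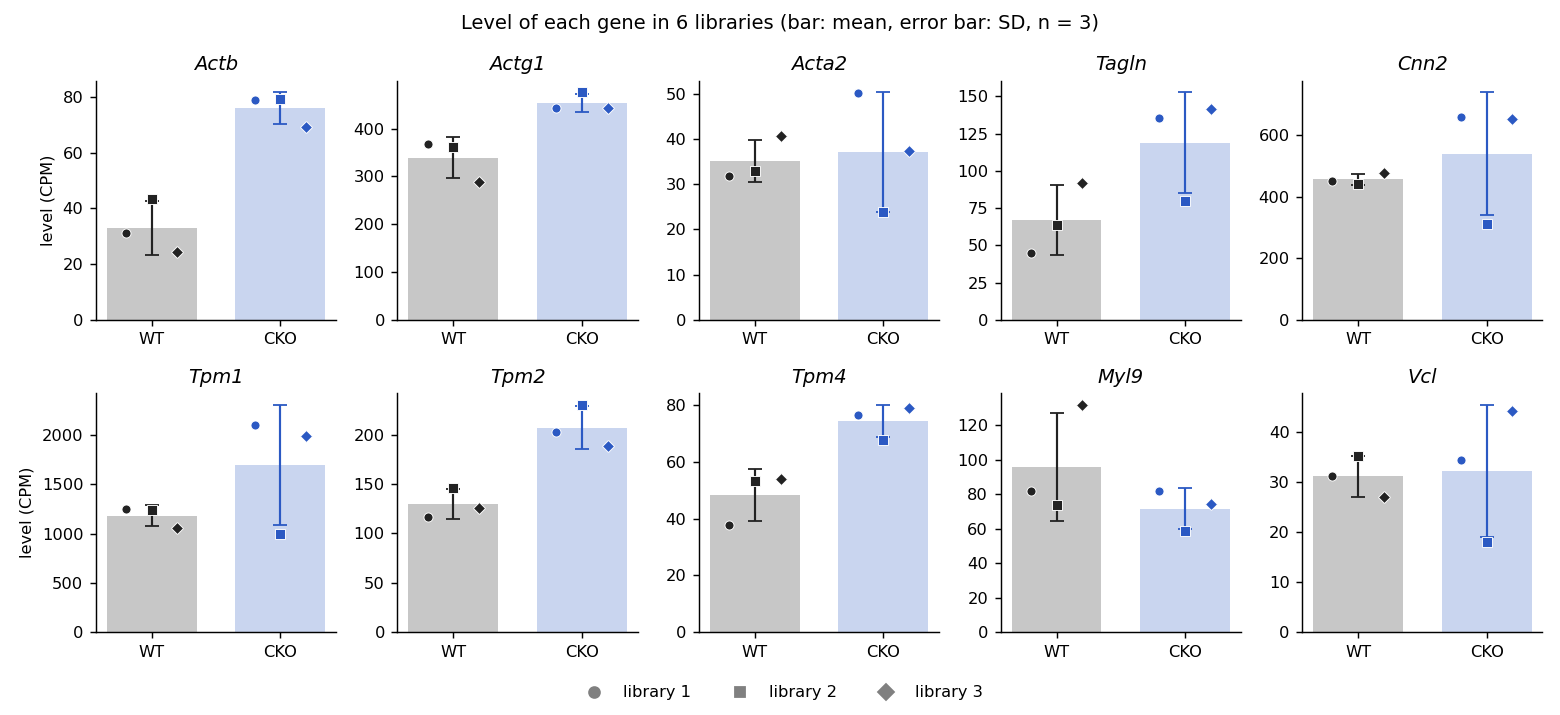
Level in CPM (vertical axes, each from 0) of the 10 genes in the 3 WT libraries (grey) and the 3 CKO libraries (blue). Bars are means, error bars are SD (n = 3), and circles, squares and diamonds are libraries 1, 2 and 3. The WT and CKO points stand apart for Actb, Actg1, Tpm2 and Tpm4, and the square of CKO 2 lies well below the other CKO points for Tagln, Cnn2, Tpm1 and Vcl.

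The cytoplasmic actins are made from Actb (beta-actin) and Actg1 (gamma-actin), which nearly every cell expresses. Actb (ENSMUSG00000029580, GRCm38, minus strand of chromosome 5, 142903115 to 142906754) stood at 31.2 CPM in WT 1, 43.5 in WT 2 and 24.5 in WT 3, and at 79.1 CPM in CKO 1, 79.4 in CKO 2 and 69.3 in CKO 3. The 3 CKO libraries lay close together and above every WT library, the highest of which was WT 2. Actb rose 2.31-fold (95% interval 1.61 to 3.33), a log2 fold change of 1.21 (SE 0.24, adjusted p = 0.0170 by limma). These levels rest on 29 to 58 reads per WT library and 80 to 115 reads per CKO library. The call was lost without WT 1 (adjusted p = 0.0805), without CKO 1 (0.0717), without CKO 3 (0.0619) and with CKO 1 and CKO 3 averaged as 1 sample (0.0650), while the log2 fold change stayed between 1.02 and 1.42.

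Actg1 (ENSMUSG00000062825, GRCm38, minus strand of chromosome 11, 120345690 to 120348542), whose promoter with its CArG box is shown above, stood at 367, 362 and 289 CPM in WT 1, WT 2 and WT 3. It stood at 443, 476 and 442 CPM in CKO 1, CKO 2 and CKO 3. The groups did not overlap, but the log2 fold change of 0.42 (SE 0.15, 95% interval 0.09 to 0.76) did not pass the threshold (adjusted p = 0.137 by limma). The CPM of Actg1 was 11.8, 8.33 and 11.8 times that of Actb in WT 1, WT 2 and WT 3, and 5.60, 5.99 and 6.38 times in CKO 1, CKO 2 and CKO 3. This ratio was lower in every CKO library than in every WT library. Both genes have near-identical copies, which could share their reads. The annotation holds 12 copies of Actg1, and 56.7% of the 50-base stretches of its transcript occur in other genes. For Actb there are 3 copies, Actg1 among them, and 14.2% of such stretches are shared. Of 100-base stretches, 51.1% are shared for Actg1 and 1.10% for Actb. How the counting treated reads that match several genes is not given in the sources used here, and its part in the levels was not tested.

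Actb also served as the reference gene of the study's quantitative PCR, so its primers are shown, 5' to 3'.
Actb forward primer: ggctgtattcccctccatcg
Actb reverse primer: ccagttggtaacaatgccatgt
Each primer matched the annotated transcripts of 1 gene exactly, Actb, and differed from every stretch of Actg1 at no fewer than 3 bases. Together they span 154 bases, positions 193 to 346 of the 1920-base transcript Actb-201. To see what the sequencing values look like relative to Actb, each library was rescaled so that its Actb level was equal. The median log2 fold change of all genes tested then moved from 0.01 to -1.08, with 84 genes called higher and 6267 lower, where the CPM as deposited gave 387 and 316. This scaling by construction shifts every gene. Under it 5 members were called lower in CKO, as were 6267 of all 12155 genes tested. The 5 were Actg1 (log2 fold change -0.81), Acta2 (-1.18), Cnn2 (-1.07), Myl9 (-1.60) and Vcl (-1.23). Relative to the shift of all genes, these 5 values lay between -0.52 and 0.27. The quantitative PCR values themselves were not analysed here.

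**Figure D2:**
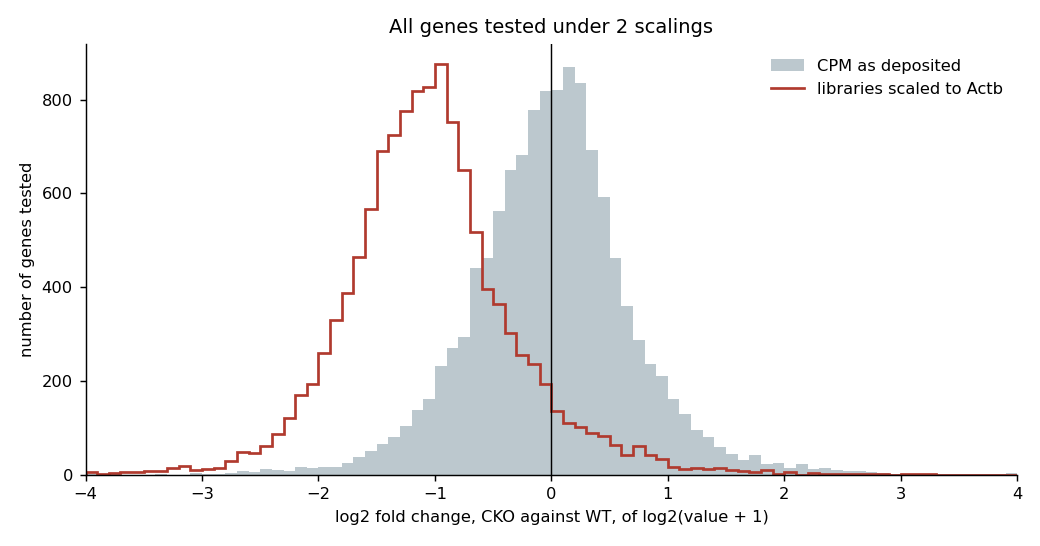
Number of genes tested (vertical axis) by log2 fold change of CKO against WT (horizontal axis), for the CPM as deposited (grey) and with every library scaled to its Actb level (red line). The median lies at 0.01 for the CPM as deposited and at -1.08 for the libraries scaled to Actb.

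Acta2, Tagln and Cnn2 are best known from smooth muscle and from contractile fibroblasts. Acta2 (alpha-smooth muscle actin; ENSMUSG00000035783, GRCm38, minus strand of chromosome 19, 34241090 to 34255590) stood at 31.9, 33.0 and 40.5 CPM in WT 1, WT 2 and WT 3. In CKO 1, CKO 2 and CKO 3 it stood at 50.2, 23.8 and 37.3 CPM, which spans the whole WT range. Its log2 fold change was 0.02 (SE 0.28, 95% interval -0.60 to 0.65, adjusted p = 0.976 by limma), so no difference was detectable, and changes within that interval could not be seen with these libraries.

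Tagln (transgelin, or SM22-alpha, which bundles actin filaments; ENSMUSG00000032085, GRCm38, minus strand of chromosome 9, 45929619 to 45936058) stood at 44.9, 63.8 and 92.1 CPM in WT 1, WT 2 and WT 3. It stood at 135.5, 80.1 and 141 CPM in CKO 1, CKO 2 and CKO 3. CKO 1 and CKO 3 lay above every WT library, and CKO 2 lay between WT 2 and WT 3. The log2 fold change was 0.84 (SE 0.29, 95% interval 0.19 to 1.49, adjusted p = 0.131 by limma). Without CKO 2 it was 1.10 (adjusted p = 0.0284), with CKO 1 and CKO 3 as the CKO group, which differed little more than sampling gives.

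Cnn2 (calponin 2, which binds actin filaments and slows myosin; ENSMUSG00000004665, GRCm38, plus strand of chromosome 10, 79988584 to 79996062), the second of the promoters shown, stood at 450.1, 440.5 and 476 CPM in WT 1, WT 2 and WT 3. It stood at 657, 310.4 and 651 CPM in CKO 1, CKO 2 and CKO 3. CKO 1 and CKO 3 were above every WT library and CKO 2 was below every WT library. The log2 fold change was 0.16 (SE 0.26, adjusted p = 0.764 by limma) with all libraries. Without CKO 2, again with only the closely alike CKO 1 and CKO 3 as the CKO group, it was 0.52 (adjusted p = 0.0216).

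Tropomyosins are coiled-coil dimers that run along actin filaments. Tpm1 (ENSMUSG00000032366, GRCm38, minus strand of chromosome 9, 67022590 to 67049406) stood at 1249.6, 1236 and 1056 CPM in WT 1, WT 2 and WT 3. In CKO 1, CKO 2 and CKO 3 it stood at 2099.6, 991 and 1993 CPM. The pattern was that of Cnn2, with CKO 1 and CKO 3 above and CKO 2 below every WT library. The log2 fold change was 0.45 (SE 0.26, 95% interval -0.12 to 1.02, adjusted p = 0.345 by limma) with all libraries. Without CKO 2 it was 0.80 (SE 0.12, adjusted p = 0.00410), again from the closely alike CKO 1 and CKO 3 on the CKO side.

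Tpm2 (ENSMUSG00000028464, GRCm38, minus strand of chromosome 4, 43514711 to 43523765) stood at 117, 146 and 126 CPM in WT 1, WT 2 and WT 3 and at 203, 230.2 and 188 CPM in CKO 1, CKO 2 and CKO 3. Every CKO library was above every WT library, and here CKO 2 was the highest. Tpm2 rose 1.59-fold (95% interval 1.24 to 2.06), a log2 fold change of 0.67 (SE 0.17, adjusted p = 0.0423 by limma). The call was close to the threshold. Among other settings, it was lost with TMM scaling (adjusted p = 0.0564), with DESeq2 (0.0650), with CKO 1 and CKO 3 averaged as 1 sample (0.117) and without any 1 library other than CKO 2 (0.0765 to 0.161), and it held in 5 of 15 alternatives.

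Tpm4 (ENSMUSG00000031799, GRCm38, plus strand of chromosome 8, 72134975 to 72153142) stood at 37.7, 53.3 and 54.1 CPM in WT 1, WT 2 and WT 3 and at 76.3, 67.8 and 78.9 CPM in CKO 1, CKO 2 and CKO 3. The groups did not overlap. The log2 fold change of 0.63 (SE 0.21, 95% interval 0.17 to 1.08) did not pass the threshold (adjusted p = 0.110 by limma). The annotation holds 1 copy of Tpm4 by the rule used for the actins, and 12.1% of the 50-base stretches of its transcript occur in other genes.

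Myl9, the regulatory light chain of myosin II whose phosphorylation switches contraction on, was among the members with a log2 fold change below 0. Myl9 (ENSMUSG00000067818, GRCm38, plus strand of chromosome 2, 156775420 to 156781658) stood at 81.9, 73.5 and 132 CPM in WT 1, WT 2 and WT 3 and at 81.8, 58.5 and 74.5 CPM in CKO 1, CKO 2 and CKO 3. WT 3 was far above the rest and the other WT libraries overlapped with the CKO libraries. The log2 fold change was -0.38 (SE 0.24, 95% interval -0.92 to 0.16, adjusted p = 0.407 by limma).

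Vcl (vinculin, which reinforces focal adhesions under load; ENSMUSG00000021823, GRCm38, plus strand of chromosome 14, 20929398 to 21033676) stood at 31.2, 35.3 and 27.0 CPM in WT 1, WT 2 and WT 3 and at 34.4, 18.0 and 44.2 CPM in CKO 1, CKO 2 and CKO 3. The CKO libraries spanned more than the WT range, with CKO 2 lowest of all and CKO 3 highest. The log2 fold change was -0.03 (SE 0.32, 95% interval -0.74 to 0.67, adjusted p = 0.967 by limma). Of the 4 members with a CArG box in the promoter window, none was called, and their log2 fold changes were 0.42 (Actg1), 0.16 (Cnn2), -0.38 (Myl9) and -0.03 (Vcl).

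Of 8 family genes outside the members, 2 were called higher, where 3.18% of all genes were. Actg2, the gamma actin of enteric smooth muscle, stood at 5.80, 8.25 and 20.3 CPM in WT 1, WT 2 and WT 3 and at 36.4, 36.8 and 41.6 CPM in CKO 1, CKO 2 and CKO 3. It rose by a log2 fold change of 1.83 (SE 0.39, adjusted p = 0.0237 by limma), with WT 3 the nearest to the CKO libraries. Tagln2, a transgelin of non-muscle cells, stood at 19.6, 24.0 and 22.8 CPM in the WT libraries and at 42.6, 46.2 and 38.1 CPM in the CKO libraries, a rise of 0.91 on the log2 scale (SE 0.22, adjusted p = 0.0396). The call of Actg2 was lost without WT 1, WT 2, CKO 1 or CKO 3 (0.0759 to 0.108), and that of Tagln2 without any 1 library other than CKO 2 (0.0636 to 0.143). Every CKO library lay above every WT library for 3 of the 8, against 14.5% of all genes. They were Actg2, Tagln2 and Tpm3, the last at 203 to 272 CPM in WT and 292 to 478 CPM in CKO (log2 fold change 0.59, adjusted p = 0.127), and 62.4% of the 50-base stretches of its transcript occur in other genes. Cnn3 (-0.13), Cnn1 (0.31), Acta1 (0.20), Actc1 (1.21) and Tagln3 (-0.74) did not pass the test, given here as log2 fold changes, and the last 3 had at most 21 reads over the 3 libraries of a genotype. The plot of fold changes with their intervals sets both groups of genes together.

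**Figure D3:**
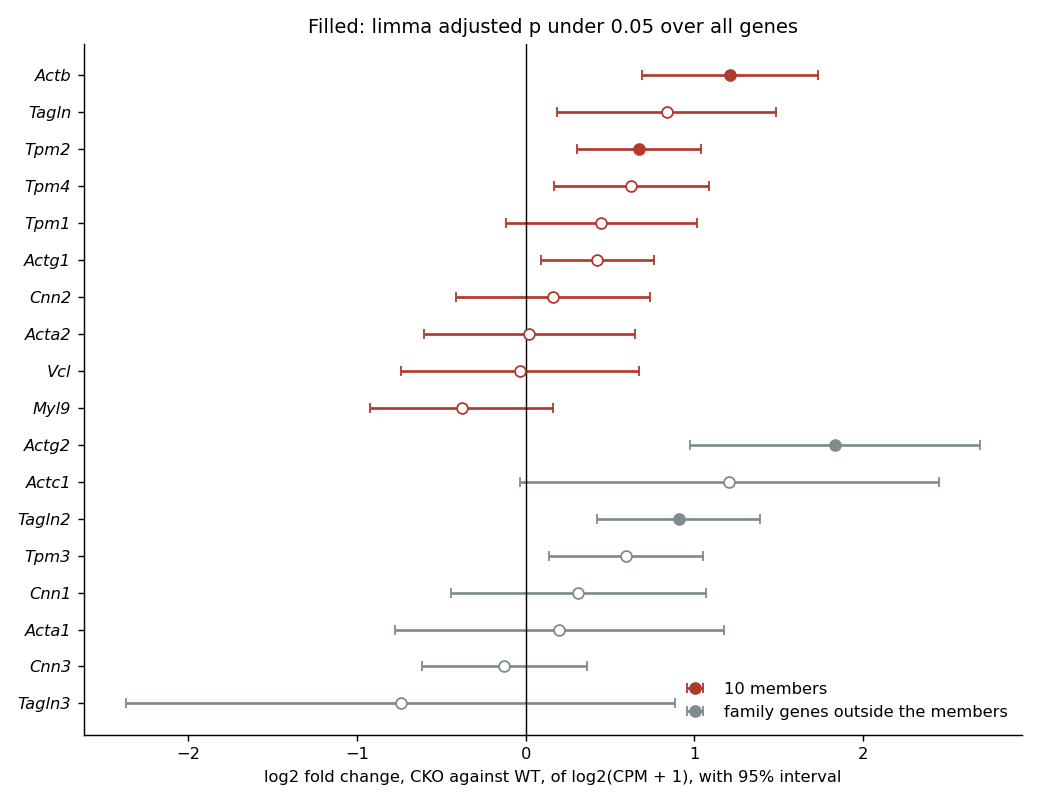
Log2 fold change of CKO against WT on log2(CPM + 1) (horizontal axis) with its 95% interval for the 10 members (red) and 8 family genes outside them (grey), each ordered by size. Filled points have a limma adjusted p under 0.05, which holds for Actb, Tpm2, Actg2 and Tagln2.

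Levels of different genes can be compared only per length, so CPM was divided by the annotated exon length of each gene in kilobases. That length counts every annotated exon, used or not. Reads that match other genes were not allowed for (shared 50-base stretches: Actg1 56.7%, Actb 14.2%, Tpm3 62.4%). The shares below are approximate for these reasons. Summed over 6 actin genes (Actb, Actg1, Acta2, Acta1, Actc1 and Actg2), the level was 166 ± 12.3 CPM per kilobase in WT and 245 ± 5.60 in CKO (mean ± SD, n = 3). Actg1 made up most of it in both genotypes, 76.6% ± 4.62 in WT and 69.6% ± 2.24 in CKO. The share of Actb was 7.36% ± 1.71 in WT and 11.6% ± 0.619 in CKO. Acta2 made up 9.73% ± 2.09 and 6.90% ± 2.45, and Actg2 4.59% ± 3.47 and 10.1% ± 0.992. The ranges of Actb and of Actg2 did not overlap between the genotypes, while those of Acta2 and Actg1 did.

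Among the tropomyosins the summed level was 288 ± 14.8 CPM per kilobase in WT and 426 ± 74.5 in CKO (mean ± SD, n = 3). Tpm1 was the main gene in every library, with 68.0%, 62.7% and 59.1% of the sum in WT 1, WT 2 and WT 3 and 67.3%, 44.8% and 67.4% in CKO 1, CKO 2 and CKO 3. CKO 2 had the lowest share of Tpm1 and, in turn, the highest shares of Tpm2 (23.2%, against 14.2% to 16.6% elsewhere) and of Tpm3 (23.0%, against 10.5% to 16.2%). Tpm4 made up 6.04% to 9.02% in all libraries. Among calponins and transgelins, Cnn2 was the main gene, with 52.3% ± 2.94 in WT and 51.9% ± 5.06 in CKO, and Tagln made up 9.55% ± 3.55 and 14.5% ± 0.499.

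Within the CKO libraries, CKO 2 stood lower than CKO 1 and CKO 3 for some members and near them for others, with no boundary set beforehand. The log2 difference of CKO 2 to the mean of CKO 1 and CKO 3 was -1.07 for Cnn2, -1.07 for Vcl, -1.04 for Tpm1, -0.83 for Acta2 and -0.78 for Tagln. It was 0.10 for Actb, 0.10 for Actg1, 0.24 for Tpm2, -0.19 for Tpm4 and -0.41 for Myl9. Over the 6827 genes that averaged 10 CPM or more, the middle 90% of this difference ran from -1.09 to 1.16 and the median was -0.02, so no member lay outside that range. Of these genes, 5.24% were lower than Cnn2, 5.26% lower than Vcl and 5.52% lower than Tpm1. Cald1 (caldesmon, which holds actin and myosin together; chosen after its values were seen) stood at 269, 326 and 221 CPM in WT 1, WT 2 and WT 3 and at 576, 251 and 528 CPM in CKO 1, CKO 2 and CKO 3. CKO 1 and CKO 3 lay above every WT library, as for Cnn2 and Tpm1, but CKO 2 lay within the WT range.

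**Figure D4:**
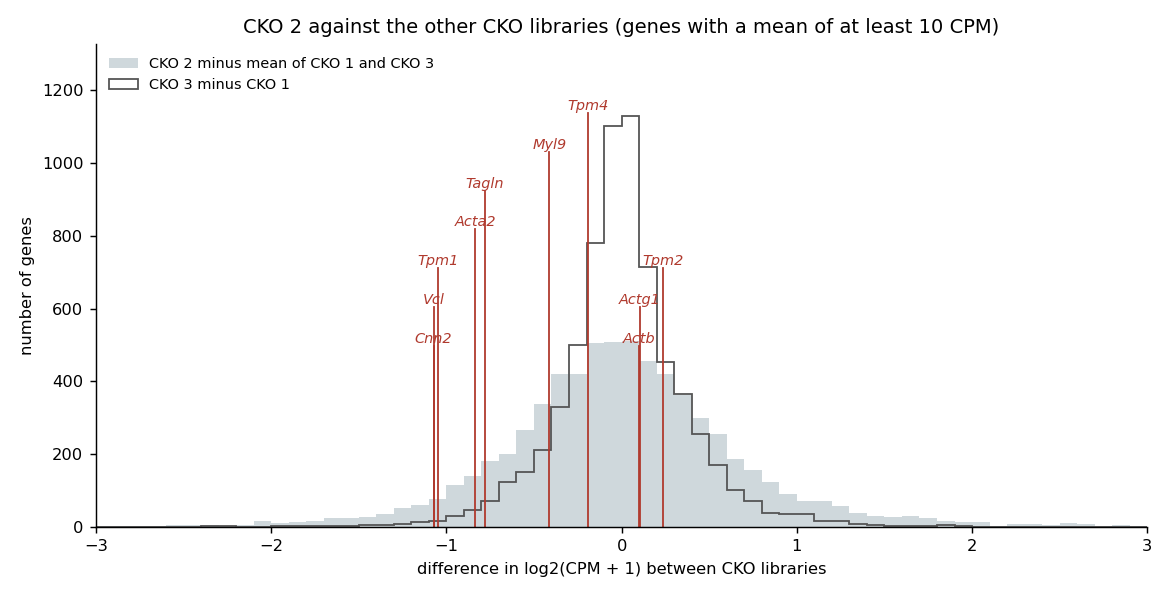
Number of genes that averaged 10 CPM or more (vertical axis) by difference in log2(CPM + 1) between CKO libraries (horizontal axis), for CKO 2 minus the mean of CKO 1 and CKO 3 (grey area, 42 of 6827 genes lie beyond 3 in either direction and are off the scale) and for CKO 3 minus CKO 1 (line). Red lines mark the members' CKO 2 differences, with Cnn2, Vcl, Tpm1, Acta2 and Tagln between -1.07 and -0.78 and the other members between -0.41 and 0.24.

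Markers of some other cell types were also low in CKO 2, and those of others were high there. The summed level of 8 osteoblast markers was 1643, 588 and 1717 CPM in CKO 1, CKO 2 and CKO 3, against 957 to 1467 CPM in the WT libraries. Bglap2 (osteocalcin family), among them, stood at 289.5, 35.4 and 257 CPM in CKO 1, CKO 2 and CKO 3 and at 30.4 to 69.0 CPM in WT, and Bglap at 26.8, 2.89 and 28.6 CPM and at 5.80 to 6.75 CPM. No osteoblast marker was called higher with all libraries and 1 of the 8 was called lower, against 3.18% and 2.60% of all genes. The type I collagen genes Col1a1 and Col1a2 (named after their values were seen) had every CKO library below every WT library, 2 of the 8, against 13.2% of all genes. For 1 of the 8 every CKO library lay above every WT library, against 14.5% of all genes. The log2 fold change was above 0 for 6 of the 8. The sum of 10 fibroblast and perichondrium markers, led by Dcn and Lum, was 2613, 1298 and 2571 CPM in CKO 1, CKO 2 and CKO 3, against 3318 to 5347 CPM in WT. Both sums were lowest in CKO 2, as Cnn2, Vcl, Tpm1, Acta2 and Myl9 were. The sums for skeletal muscle (177, 336 and 172 CPM in CKO 1, CKO 2 and CKO 3) and epidermis (142, 204 and 153 CPM) were highest in CKO 2 among the CKO libraries. In CKO 2, Myog alone made up most of the skeletal muscle sum, with its values given below, and no sum without it was taken. What these cell types contribute to the members' levels was not tested. The members' values with CKO 2 left out are those given above. Then 5 members were called (Actb, Tagln, Cnn2, Tpm1 and Tpm2), all higher, where 5.41% of all genes were called higher and 4.61% lower. That fit rests on CKO 1 and CKO 3, which differed little more than sampling of reads gives, so its p-values take in little spread between CKO libraries. With CKO 1 and CKO 3 averaged as 1 sample beside CKO 2, no member was called. The log2 fold changes were then 0.71 for Tagln, -0.015 for Cnn2 and 0.27 for Tpm1.

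Because smooth and skeletal muscle carry these proteins at high levels, their markers were read in the same libraries. The summed level of 12 smooth muscle and pericyte markers was 33.3 to 70.1 CPM in WT and 76.3 to 91.7 CPM in CKO. The list includes Actg2, and without it the ranges overlapped, at 27.5 to 49.8 CPM in WT and 34.7 to 54.9 CPM in CKO. Myh11, the smooth muscle myosin heavy chain, stood at 0, 0.75 and 2.53 CPM in WT 1, WT 2 and WT 3 and at 3.44, 7.94 and 1.73 CPM in CKO 1, CKO 2 and CKO 3, which is at most 11 reads. Skeletal muscle markers (19 of 20 listed) summed to 129, 84.0 and 356 CPM in WT 1, WT 2 and WT 3, against 172 to 336 CPM in CKO. Its first genes were low, Acta1 at 2.60 to 6.88 CPM and Ckm, muscle creatine kinase, at 0 to 7.60 CPM in all libraries. Higher ones, named after their values were seen, were Mylpf, a fast muscle light chain, at 17.3 to 80.3 CPM in all libraries and Myog (myogenin, a muscle transcription factor) at 179 CPM in CKO 2 and 4.50 to 34.6 CPM in the other libraries. The part of muscle cells in the members' levels was not tested.

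The chondrocyte markers were present and lower in CKO, with a sum of 23099 to 27635 CPM in WT and 5209 to 5357 CPM in CKO and with 6 of 8 genes called lower. Col2a1 (type II collagen) fell from 2720 to 3944 CPM in the WT libraries to 1411 to 1950.2 CPM in the CKO libraries, and Acan (aggrecan) from 477 to 746 CPM to 147 to 276 CPM. As CPM is a share of each library's reads, a fall in abundant genes leaves a larger share for the rest. The part of this in the members' levels was not tested beyond TMM scaling, whose factors were 0.970 to 1.02 and which moved the median log2 fold change of all genes from 0.01 to -0.03 and left Actb as the called member. The epidermis list (9 of 12 markers) summed to 29.6 to 60.8 CPM in WT and 142 to 204 CPM in CKO, of which Perp (named after its values were seen) was 8.45 to 18.8 CPM in WT and 97.0 to 145 CPM in CKO. Without Perp the ranges overlapped, at 21.1 to 46.4 CPM in WT and 44.7 to 58.5 CPM in CKO. Its first marker analysed, Krt15, stood at 0 to 0.75 CPM in all libraries. Macrophage and osteoclast markers summed to 154 to 393 CPM in WT and 299.8 to 315 CPM in CKO, with Csf1r at 0 to 7.22 CPM and Cd68 at 6.75 to 11.8 CPM in WT and 46.9 to 76.3 CPM in CKO. Endothelial markers (7 of 8) summed to 8.70 to 18.2 CPM in all libraries, with Pecam1 and Cdh5 at no more than 0.87 CPM. Erythroid markers (4 of 7) summed to 0.72 to 5.25 CPM in WT and 2.06 to 28.9 CPM in CKO, with the highest sum in CKO 2. The part of these other cell types in the members' levels was not tested.

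The rest of the actin machinery was read from 7 lists, compiled by function. They too were chosen with earlier results of these data known. Together, 124 of their genes were tested. Of these, 18 (14.5%) were called higher and none lower by limma, where the shares of all genes were those given for the members. Here 35 had an unadjusted p under 0.05 in the higher and 1 in the lower direction, against 11.2% and 10.1% of all genes. By edgeR on the recovered reads 17 were called higher and none lower, and by DESeq2 15 and none. The median log2 fold change was 0.23, with 82 of 124 above 0, where 6180 of all 12155 genes were. Without WT 2 only 5 were called higher, without CKO 1 or CKO 3 only 6 each, without WT 1 only 7, with CKO 1 and CKO 3 averaged 7, and without CKO 2 28. Capg, Actr2, Msn, Cyr61 and Fos were called in all 14 alternatives other than scaling to Actb. Each of the other 13 calls was lost without at least 1 of WT 1, WT 2, CKO 1 and CKO 3 (adjusted p of 0.0530 to 0.186 where lost), with the log2 fold change above 0 throughout.

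Genes that cap, sequester and nucleate actin were among those that rose. Of 21 turnover genes tested, 3 were called higher. Capg, which caps filament ends, stood at 58.0, 63.0 and 76.9 CPM in WT 1, WT 2 and WT 3 and at 222, 228 and 211 CPM in CKO 1, CKO 2 and CKO 3, a log2 fold change of 1.74 (SE 0.17, adjusted p = 0.000654 by limma). The monomer-sequestering thymosins Tmsb4x (165 to 237 CPM in WT and 297 to 438 CPM in CKO, adjusted p = 0.0208) and Tmsb10 (log2 fold change 0.76, adjusted p = 0.0237) rose too. Of 18 nucleation genes, 2 were called higher, both of the Arp2/3 complex that starts branched filaments. Actr2 (Arp2) stood at 35.5, 35.3 and 40.5 CPM in WT 1, WT 2 and WT 3 and at 96.3, 92.4 and 122 CPM in CKO 1, CKO 2 and CKO 3 (log2 fold change 1.45, SE 0.19, adjusted p = 0.00314), and Arpc1b rose by 0.82 (adjusted p = 0.0159).

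Of 18 crosslinkers tested, 4 were called higher. Msn (moesin, which ties filaments to the membrane) stood at 133, 185 and 193 CPM in WT 1, WT 2 and WT 3 and at 356, 436 and 392 CPM in CKO 1, CKO 2 and CKO 3, a log2 fold change of 1.22 (adjusted p = 0.00505 by limma). Palld (palladin) rose by 1.84 (adjusted p = 0.0115), Pls3 (plastin 3) by 1.13 (adjusted p = 0.0200), and the fourth was Actn1 (alpha-actinin 1) at 15.0 to 21.1 CPM in WT and 31.2 to 39.2 CPM in CKO (adjusted p = 0.0414). Among the other genes that rose were 2 light chains of non-muscle myosin II. Myl12a, a regulatory light chain like Myl9, stood at 1009.7 to 1159 CPM in WT and 1542 to 1799 CPM in CKO (log2 fold change 0.68, adjusted p = 0.0220), and Myl6, the essential light chain, at 1758 to 2042 CPM in WT and 2545 to 2792 CPM in CKO (0.53, adjusted p = 0.0485). Of 14 alternatives other than scaling to Actb, the call of Myl6 held in 3 and that of Myl12a in 8. Myl12a has a close paralog, Myl12b, with which reads could be shared. The heavy chains did not pass the test, Myh9 with a log2 fold change of 0.22 (adjusted p = 0.592) and Myh10 with -0.57 (adjusted p = 0.258).

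Few focal adhesion genes were called. Of 26 tested, 1 was called higher, a share of 3.85% against 3.18% of all genes, Pdlim5 (log2 fold change 1.05, adjusted p = 0.0359 by limma), and none lower, where 3 had an unadjusted p under 0.05 in the higher and 1 in the lower direction. The median was -0.09 and 18 of 26 were below 0. Of 23 SRF and MRTF genes tested outside the members, all 23 had a log2 fold change above 0, against 50.8% of all genes tested. Their median was 0.66, and 4 (17.4%) were called higher, against 3.18% of all genes. This list too was chosen with earlier results of these data known. Cyr61 (now Ccn1, a matricellular protein) stood at 304, 289.7 and 168 CPM in WT 1, WT 2 and WT 3 and at 908, 1161 and 886 CPM in CKO 1, CKO 2 and CKO 3 (log2 fold change 1.99, adjusted p = 0.00159). Fos (log2 fold change 2.17, adjusted p = 0.00795) and Junb (1.33, adjusted p = 0.0121), immediate early genes of the AP-1 factor, rose too, Fos from 8 reads over the WT libraries to 51 over the CKO libraries, and the fourth was Fosl1. Fosl1 and Actn1 fall outside the rule for named genes and were named after their values were seen. Srf itself stood at 0 to 2.25 CPM in WT and 0.87 to 4.13 CPM in CKO, too few reads to compare (4 and 11 in all). No test compared the lists with each other.

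**Figure D5:**
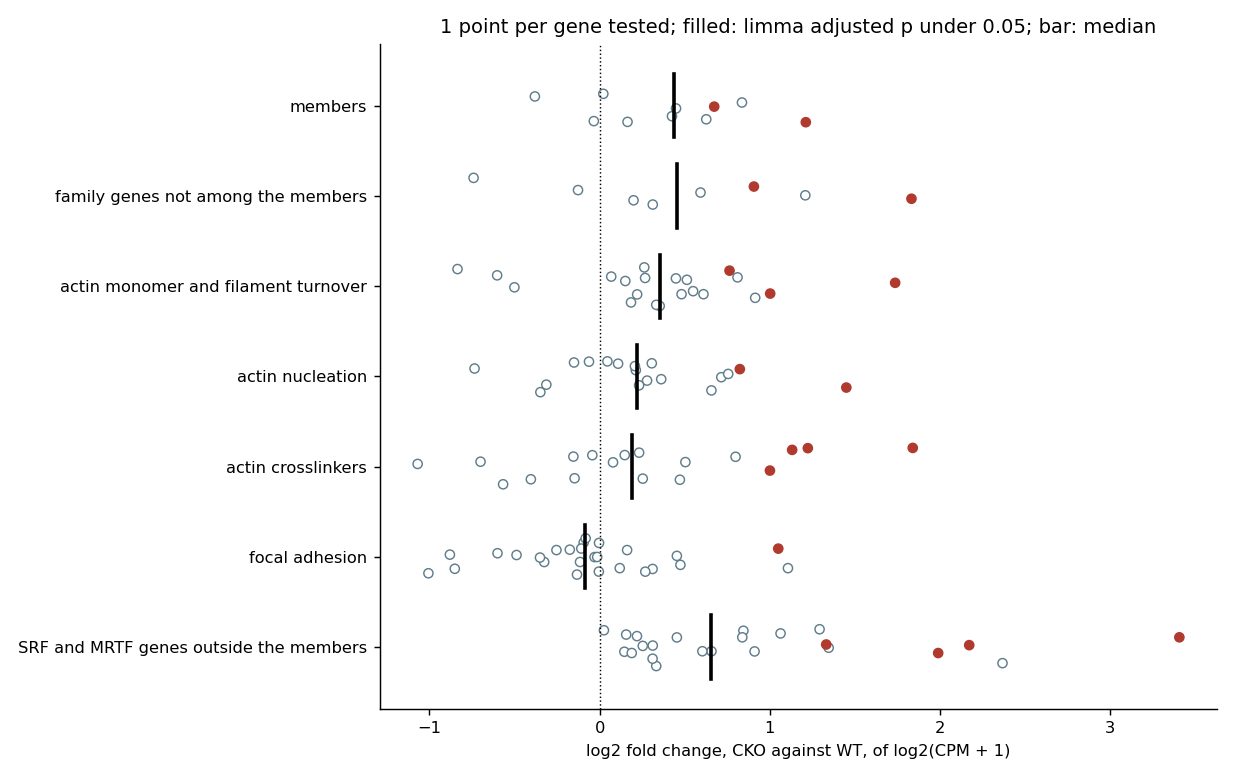
Log2 fold change of CKO against WT (horizontal axis) of each gene tested in the member list and in 6 further lists of the actin machinery (rows), 1 point per gene, with genes in more than 1 list drawn in each. Filled points have a limma adjusted p under 0.05 and all of them lie to the right of 0. Black bars are medians, from -0.09 for focal adhesion to 0.66 for SRF and MRTF genes.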

How the data were processed

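Growth plate cartilage RNA was sequenced in 3 WT and 3 CKO libraries. The authors made stranded mRNA libraries and deposited 1 table of CPM per gene and library. The submitters' processing notes name cutadapt (2.5), HISAT2 and featureCounts (1.6.3), without their settings, and the genome build and annotation are not given in the sources used here. In each library 100% of the values were whole multiples of 1 read within 0.001 reads, so reads were recovered (1153871 to 1454094 per library, 3 reads being worth 2.06 to 2.60 CPM). Floors and counts of reads cover counting error only.

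The comparison of CKO with WT used limma (3.58.1 in R 4.3.3) on log2(CPM + 1) with a mean-variance trend, no covariate, a minimum mean of 1 CPM (12155 genes), and Benjamini-Hochberg adjustment over them. The pseudocount shrinks the fold changes of low genes. The table gives no coordinates, and positions and exon lengths were taken by gene identifier from GENCODE M21 on GRCm38. Copies were counted with BLAST (2.17.0) at 90% identity or more over at least 300 bases. The fits were tested on simulated data. Alternatives were pseudocounts of 0.1 and 5, no filter, TMM, scaling to Actb, a replicate term, each library left out, edgeR's quasi-likelihood test (4.0.16) and DESeq2's Wald test (1.42.0) on the recovered reads. Averaging CKO 1 and CKO 3 was added after seeing the data.

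The members and lists were chosen with earlier results of these data known. Genes named are the members, their family genes, Myh9, Myh10, Myl6, Srf and Hnrnpk, from each further list at most 3 genes called in each direction by smallest p, and the first 2 genes of each marker list. Promoters came from RefSeq (GRCm38.p6) and the primers from the study's supplementary list. The count of 1 gene list is not reported here on its own.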

Additional observations from a re-analysis of the deposited data

How the results depend on the processing

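Direction and call of Actb held in 10 of 14 alternatives and its log2 fold change stayed above 0 in all 14. With all libraries, 703 genes were called in either direction, 2 members, and 18 further actin genes higher and 0 lower. Scaling to Actb gave 6351 genes, 5 members, 3 further actin genes higher and 61 lower, and log2 fold changes of -0.81 for Actg1, -1.18 for Acta2, -0.39 for Tagln, -1.07 for Cnn2, -0.79 for Tpm1, -0.56 for Tpm2 and -0.59 for Tpm4, which by construction shifts every gene. TMM scaling and DESeq2 each left 1 member called. Averaging CKO 1 and CKO 3, chosen after seeing the data, gave 260 genes, 0 members and 7 further actin genes, with fewer samples. Leaving out 1 library gave 208 to 1218 genes, 0 to 5 members and 5 to 28 further actin genes higher, with the highest counts without CKO 2. The calls of Tagln, Cnn2 and Tpm1 were made without CKO 2 and not otherwise, apart from Cnn2 called lower under scaling to Actb. Values near 0 turned sign. Acta2 (0.02) gave -0.022 with TMM, -0.11 with the average, and -0.22 to 0.30 with a library left out. Cnn2 (0.16) gave -0.015 with the average and -0.019 to 0.52 with a library left out. Vcl (-0.03) gave 0.012 with DESeq2 and -0.30 to 0.32 with a library left out. Without single libraries, the reversed values of Acta2 were -0.043 (WT 1), -0.018 (WT 2), -0.22 (CKO 1) and -0.0125 (CKO 3), those of Cnn2 -0.019 (CKO 1) and -0.012 (CKO 3), and those of Vcl 0.057 (WT 2) and 0.32 (CKO 2). The cause of these changes was not tested.

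The libraries carry replicate numbers, but libraries with the same number did not deviate together (correlations of 0.07, -0.21 and -0.15 over 6827 genes). With the replicate block, 385 genes, 1 member (Actb) and 12 further actin genes were called, and Tpm2 lost its call (adjusted p = 0.0821). Pseudocounts, the filter and edgeR's test left 2 members called. The depth limits low genes most, since genes such as Srf, Myh11 and Tagln3 rest on a few reads per library.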
